A study of Mus musculus with 4 samples.

Results

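Expression of 9 CC chemokine genes, Ccl2, Ccl7, Ccl12, Ccl8, Ccl24, Ccl6, Ccl9, Ccl3 and Ccl4, was followed through the CD45+ cells of the salivary gland of 20-day-old mice. The genes were taken by symbol, 9 of the 26033 features in the count matrices, as the CC chemokines of the gland's myeloid cells, and all 9 were detected. Together they held 1059726 of the 390387155 UMIs (unique molecular identifiers, 1 per captured transcript) in the cells kept. The mice were C56BL/6 (the strain as the labels spell it) and either Csf2-/- or Csf2+/-. Csf2 encodes GM-CSF, and the study's title asks about gland macrophages maintained by GM-CSF from group 2 innate lymphoid cells. Each genotype had 1 female and 1 male library, each pooled from 2 mice, so 4 libraries were compared as 2 against 2. Glands were digested, and CD45+ cells were enriched on magnetic beads and then sorted. Csf2+/- mice keep 1 functional allele, no Csf2+/+ library was analysed here, and which part of Csf2 is lost is not given in the sources used here. A p-value below rests on the spread between 2 pools that also differ in sex.

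CC chemokines are small secreted proteins that steer leukocytes through receptors coupled to G proteins. Ccl2, Ccl7 and the mouse gene Ccl12 encode ligands of Ccr2, the receptor that draws classical monocytes out of the bone marrow. Ccl8 encodes a mouse ligand of Ccr8, and Ccl24 encodes an eotaxin that binds Ccr3 on eosinophils. Ccl6 and Ccl9 are rodent genes whose products act on Ccr1, while Ccl3 and Ccl4 encode the macrophage inflammatory proteins, and that of Ccl3 also acts on Ccr1. Tissue macrophages, monocytes and dendritic cells are known sources of all of these, and GM-CSF acts on the same cells through a receptor that activates Stat5.

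Apart from Ccl24, which lies on chromosome 5, the genes form a pair of neighbourhoods on chromosome 11. Ccl2 and Ccl7 are followed, past Ccl11, by Ccl12 and Ccl8, and Ccl9, Ccl6, Ccl3 and Ccl4 follow each other further along. RefSeq promoters of build GRCm38.p6, from 250 bases before to 50 bases after the annotated start, were matched for 5 of the 9 genes (Ccl12, Ccl8, Ccl6, Ccl9 and Ccl3). They are shown because neighbours in these clusters had the most similar expression patterns, Ccl6 with Ccl9 and Ccl3 with Ccl4. Ccl12 lies at chr11:82101595-82101894 on the plus strand and Ccl8 at chr11:82114935-82115234 on the plus strand. Ccl6 lies at chr11:83593038-83593337, Ccl9 at chr11:83578587-83578886 and Ccl3 at chr11:83649329-83649628, all on the minus strand. In the sequences, written 5′ to 3′ on the gene's strand, capitals mark matches to the searched motifs.
Ccl12 promoter: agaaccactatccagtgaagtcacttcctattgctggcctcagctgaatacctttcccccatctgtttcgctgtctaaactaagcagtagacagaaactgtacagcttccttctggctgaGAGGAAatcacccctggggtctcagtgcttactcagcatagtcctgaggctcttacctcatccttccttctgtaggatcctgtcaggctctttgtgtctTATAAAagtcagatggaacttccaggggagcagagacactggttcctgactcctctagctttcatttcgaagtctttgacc
Ccl8 promoter: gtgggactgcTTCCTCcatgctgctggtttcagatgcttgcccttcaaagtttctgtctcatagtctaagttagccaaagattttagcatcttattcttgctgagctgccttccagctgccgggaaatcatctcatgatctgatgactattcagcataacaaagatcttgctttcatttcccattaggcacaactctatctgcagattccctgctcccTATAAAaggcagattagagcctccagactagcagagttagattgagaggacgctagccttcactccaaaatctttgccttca
Ccl6 promoter: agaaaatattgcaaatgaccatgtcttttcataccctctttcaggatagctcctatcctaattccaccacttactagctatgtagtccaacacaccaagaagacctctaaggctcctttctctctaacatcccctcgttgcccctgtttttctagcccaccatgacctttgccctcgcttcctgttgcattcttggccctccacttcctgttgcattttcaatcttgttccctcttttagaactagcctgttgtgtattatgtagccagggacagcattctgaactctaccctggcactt
Ccl9 promoter: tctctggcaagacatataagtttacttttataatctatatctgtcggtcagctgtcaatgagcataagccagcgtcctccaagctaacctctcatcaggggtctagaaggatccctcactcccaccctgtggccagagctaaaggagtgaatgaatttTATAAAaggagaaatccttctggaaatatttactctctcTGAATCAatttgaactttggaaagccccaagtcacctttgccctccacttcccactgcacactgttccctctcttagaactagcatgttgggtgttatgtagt
Ccl3 promoter: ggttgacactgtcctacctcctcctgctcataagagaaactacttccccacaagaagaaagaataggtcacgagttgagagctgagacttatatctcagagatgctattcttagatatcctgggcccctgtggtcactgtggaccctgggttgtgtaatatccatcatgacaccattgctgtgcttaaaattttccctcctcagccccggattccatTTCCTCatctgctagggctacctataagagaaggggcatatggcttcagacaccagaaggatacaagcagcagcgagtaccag

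The motifs searched on both strands were GAGGAA (the core bound by PU.1, a myeloid transcription factor), TGANTCA (AP-1), GGGA and TTCC with 2 bases between them (NF-kB), TTC and GAA with 3 or 4 bases between them (STAT), and GAAA repeated with 2 bases between the copies (interferon response), with TATAAA searched on the gene's strand. No matches overlapped. Positions count from the annotated start, with the base before it as -1. The Ccl12 promoter held GAGGAA at -130 and TATAAA at -31, and the Ccl8 promoter held GAGGAA on the opposite strand at -240 and TATAAA at -32. The Ccl9 promoter held an AP-1 match at -53 and TATAAA at -92, and the Ccl3 promoter held GAGGAA on the opposite strand at -33. Of 32851 RefSeq promoters of the same length, 28.3% held GAGGAA, 7.81% the AP-1 motif and 8.32% TATAAA. The NF-kB motif (1.47% of promoters), both STAT motifs (8.30% and 6.95%) and the interferon motif (3.44%) had no match in the 5 windows, and Ccl6 had no match to any motif. Best local alignments paired Ccl12 with Ccl8, at 121 identical of 186 aligned bases (65.1%), and Ccl6 with Ccl9, at 58 identical of 67 aligned bases (86.6%), which included the shared run GCCCTCCACTTCC.

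The 4 libraries held 111981802 to 122366588 UMIs, and 8097 to 8965 cells per library were kept after filtering. Pairs of libraries shared 20 to 38 cell barcodes. Levels below are CPM, the UMIs of a gene per 1000000 UMIs of that cell type in that library. In ILC2-like cells Csf2 stood at 6.70 and 5.82 CPM in the Csf2-/- female and male pools, against 124 and 140.0 CPM in the Csf2+/- pools. Csf2 was thus low in both libraries labelled Csf2-/-. Cell types carry the suffix "-like" because they were named here from marker genes, on clusters made without any chemokine gene. B-like cells were taken as a guide to the level that free RNA can add. They were not the lowest type for every gene. Ccl12 was 1.87 to 3.86 CPM in cDC1-like dendritic cells, against 9.12 to 15.6 CPM in B-like cells. Orders of cell types below cover the types with at least 50 cells in each library.

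The macrophage-like cells divided into a set high in Mrc1, the mannose receptor gene, and a set high in Il1a, the interleukin-1α gene. Mrc1-high cells (535 and 670 cells in the Csf2-/- and 413 and 474 cells in the Csf2+/- pools, the female pool first here and throughout) were led by Folr2, F13a1, Lyve1 and Mrc1 and were low in MHC class II. Il1a-high cells (613 and 411 cells in Csf2-/-, 473 and 446 in Csf2+/- pools) were led by Il1a, Plau, Fat3 and Cd14. Mrc1 stood at 3069 and 3536 CPM in Csf2-/- and at 2963 and 3098 CPM in Csf2+/- Mrc1-high cells, while no pool of Il1a-high cells passed 76.1 CPM. Other macrophage-like clusters were numbered, among them cluster 18, led by Trem2 and Apoe. Cluster 13, led by Retnla, Fn1, Lyz1, Ear2 and Lpl, had markers of more than 1 class and was left without a name.

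Among the Ccr2 ligands, Ccl2 was highest in Mrc1-high macrophages of the types with at least 50 cells in each library, at 2373 and 2953 CPM in Csf2-/- pools and 2019 and 2357 CPM in Csf2+/- pools. The next types of that size, cluster 18 (684 to 1068 CPM over the 4 libraries) and cluster 13 (744 to 961 CPM), overlapped each other and lay below every Mrc1-high pool. Classical monocyte-like cells (295 to 579 CPM) and Il1a-high macrophages (349 to 538 CPM) followed and overlapped. The cDC2-like dendritic cells (223 to 342 CPM) lay below every Il1a-high pool and overlapped the classical monocyte-like cells. Among smaller types, the dividing macrophage cluster 21 (1175 to 1882 CPM) lay above cluster 18, and the few mast cell-like cells (5264 to 7618 CPM) lay above the Mrc1-high cells. B-like cells had 3.55 and 7.81 CPM in Csf2-/- and 7.72 and 11.7 CPM in Csf2+/- pools.

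Ccl7 lay almost wholly on the Mrc1-high side of the macrophages. It reached 1453 and 2059 CPM in Csf2-/- and 1082 and 1327 CPM in Csf2+/- Mrc1-high cells, whereas Il1a-high cells had 41.1 and 86.8 CPM in Csf2-/- and 18.8 and 42.0 CPM in Csf2+/- pools. Cluster 18 (303 to 475 CPM) and cluster 13 (124 to 262 CPM) came between. The ratio of Ccl2 to Ccl7 UMIs was therefore 1.43 to 1.87 in Mrc1-high cells, but 5.25 to 10.2 in classical monocyte-like and 6.20 to 18.6 in Il1a-high cells.

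Ccl12 was high in both macrophage sets and in few other cells. Mrc1-high cells had 1787 and 2192 CPM in Csf2-/- and 1475 and 1269.9 CPM in Csf2+/- pools. Il1a-high cells had 428 and 496 CPM in Csf2-/- and 437 and 407 CPM in Csf2+/- pools, and overlapped cluster 18 (295 to 702 CPM). Classical monocyte-like cells held only 15.1 to 44.1 CPM, close to the 9.12 to 15.6 CPM of B-like cells. Ccl2 UMIs outnumbered Ccl12 UMIs 1.33 to 1.86 times in Mrc1-high cells, 0.799 to 1.09 times in Il1a-high cells, 13.1 to 19.5 times in classical monocyte-like cells and 19.5 to 40.4 times in cDC2-like cells. Only the last pair of these ranges met.

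Ccl8 and Ccl24 were high in Mrc1-high macrophages and near the B-like level in Il1a-high ones. Ccl8 stood at 136 and 197 CPM in Csf2-/- and 77.7 and 146 CPM in Csf2+/- Mrc1-high cells, against 0.403 and 1.61 CPM in Csf2-/- and 0.313 and 0.178 CPM in Csf2+/- Il1a-high cells. Ccl24 stood at 400.1 and 369 CPM in Csf2-/- and 355 and 325 CPM in Csf2+/- Mrc1-high cells. Il1a-high cells held 0.805 and 1.79 CPM of Ccl24 in Csf2-/- and 0.784 and 3.02 CPM in Csf2+/- pools, and B-like cells 0 to 2.11 CPM. For both genes all 4 Mrc1-high pools lay above every other cell type with at least 50 cells in each library.

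Ccl6 and Ccl9 followed another order. Among types with at least 50 cells in each library, Ccl6 was highest in eosinophil-like cells (5352 and 5074 CPM in Csf2-/-, 6943 and 7866 CPM in Csf2+/-), then in cluster 13 (1507 and 1369.8 CPM in Csf2-/-, 1702 and 1853 CPM in Csf2+/-). Classical monocyte-like cells (837 to 1068 CPM), Mrc1-high macrophages (583 to 659 CPM) and non-classical monocyte-like cells (419 to 495 CPM) came next, each apart from its neighbour. In Il1a-high cells Ccl6 was 66.6 and 74.3 CPM in Csf2-/- and 79.0 and 84.1 CPM in Csf2+/- pools, below every Mrc1-high pool. The eosinophil-like cells were shallow, with median counts of 662.5 to 818 UMIs per cell, and were led by Alox15 and Ccr3. The granule genes Epx, Prg2 and Ear6 were at 0 in them.

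Ccl9 shared the first places of that order, with 1709 and 1899 CPM in Csf2-/- and 1982 and 2429 CPM in Csf2+/- eosinophil-like cells and 836 to 1215 CPM in cluster 13. Below these, Mrc1-high (386 to 451 CPM), cluster 18 (275 to 428 CPM), cDC2-like (258 to 358 CPM) and classical monocyte-like cells (213 to 309 CPM) overlapped in turn. The ratio of Ccl6 to Ccl9 UMIs separated several myeloid types. It was 6.98 to 7.96 in non-classical and 3.12 to 4.02 in classical monocyte-like cells, 1.39 to 1.59 in Mrc1-high macrophages, 1.07 to 1.20 in cDC2-like cells, 0.472 to 0.613 in Il1a-high macrophages and 0.307 to 0.421 in migratory dendritic-like cells. None of these 6 ranges overlapped, while cDC1-like cells (5.30 to 7.11) overlapped the non-classical monocyte-like range, eosinophil-like cells (2.67 to 3.50) the classical monocyte-like range and cluster 13 (1.53 to 1.80) that of Mrc1-high cells. The transcripts of Ccl6 and Ccl9 share no run longer than 25 bases, and those of Ccl2 and Ccl7 none longer than 23.

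Ccl3 and Ccl4 marked the Il1a-high macrophages. Ccl4 stood at 10378 and 11432 CPM in Csf2-/- and 9248 and 10054 CPM in Csf2+/- Il1a-high cells, against 1112 and 1637 CPM in Csf2-/- and 1143 and 1377 CPM in Csf2+/- Mrc1-high cells. Ccl3 stood at 2323 and 2568 CPM in Csf2-/- and 2272 and 2125 CPM in Csf2+/- Il1a-high cells, against 349 and 583 CPM in Csf2-/- and 438 and 444 CPM in Csf2+/- Mrc1-high cells. Among types with at least 50 cells in each library, the Il1a-high range of both genes overlapped only that of cluster 28, a dividing cluster led by the same Il1a and Plau genes (6881 to 9620 CPM of Ccl4). Of these types cluster 18 came next, with 2808 to 3842 CPM of Ccl4 and 777 to 1067 CPM of Ccl3. The smaller cluster 35, led by the interferon-induced genes Rsad2 and Ifit3, had 6443 to 9797 CPM of Ccl4, which reached into the Il1a-high range.

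Outside the macrophages, NK and ILC1-like cells held Ccl4 at 965 and 1192 CPM in Csf2-/- and 897 and 989 CPM in Csf2+/- pools, overlapping the range of Mrc1-high cells. Ccl4 UMIs outnumbered Ccl3 UMIs 4.07 to 4.73 times in Il1a-high and 2.61 to 3.19 times in Mrc1-high macrophages. The same ratio was 5.95 to 8.40 in NK and ILC1-like cells and 1.29 to 1.70 in non-classical monocyte-like cells. The annotated spans of Ccl3 and Ccl4 overlap, and whether the authors' counting used strand is not given in the sources used here, so reads in the overlap cannot be told apart.

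**Figure D1:**
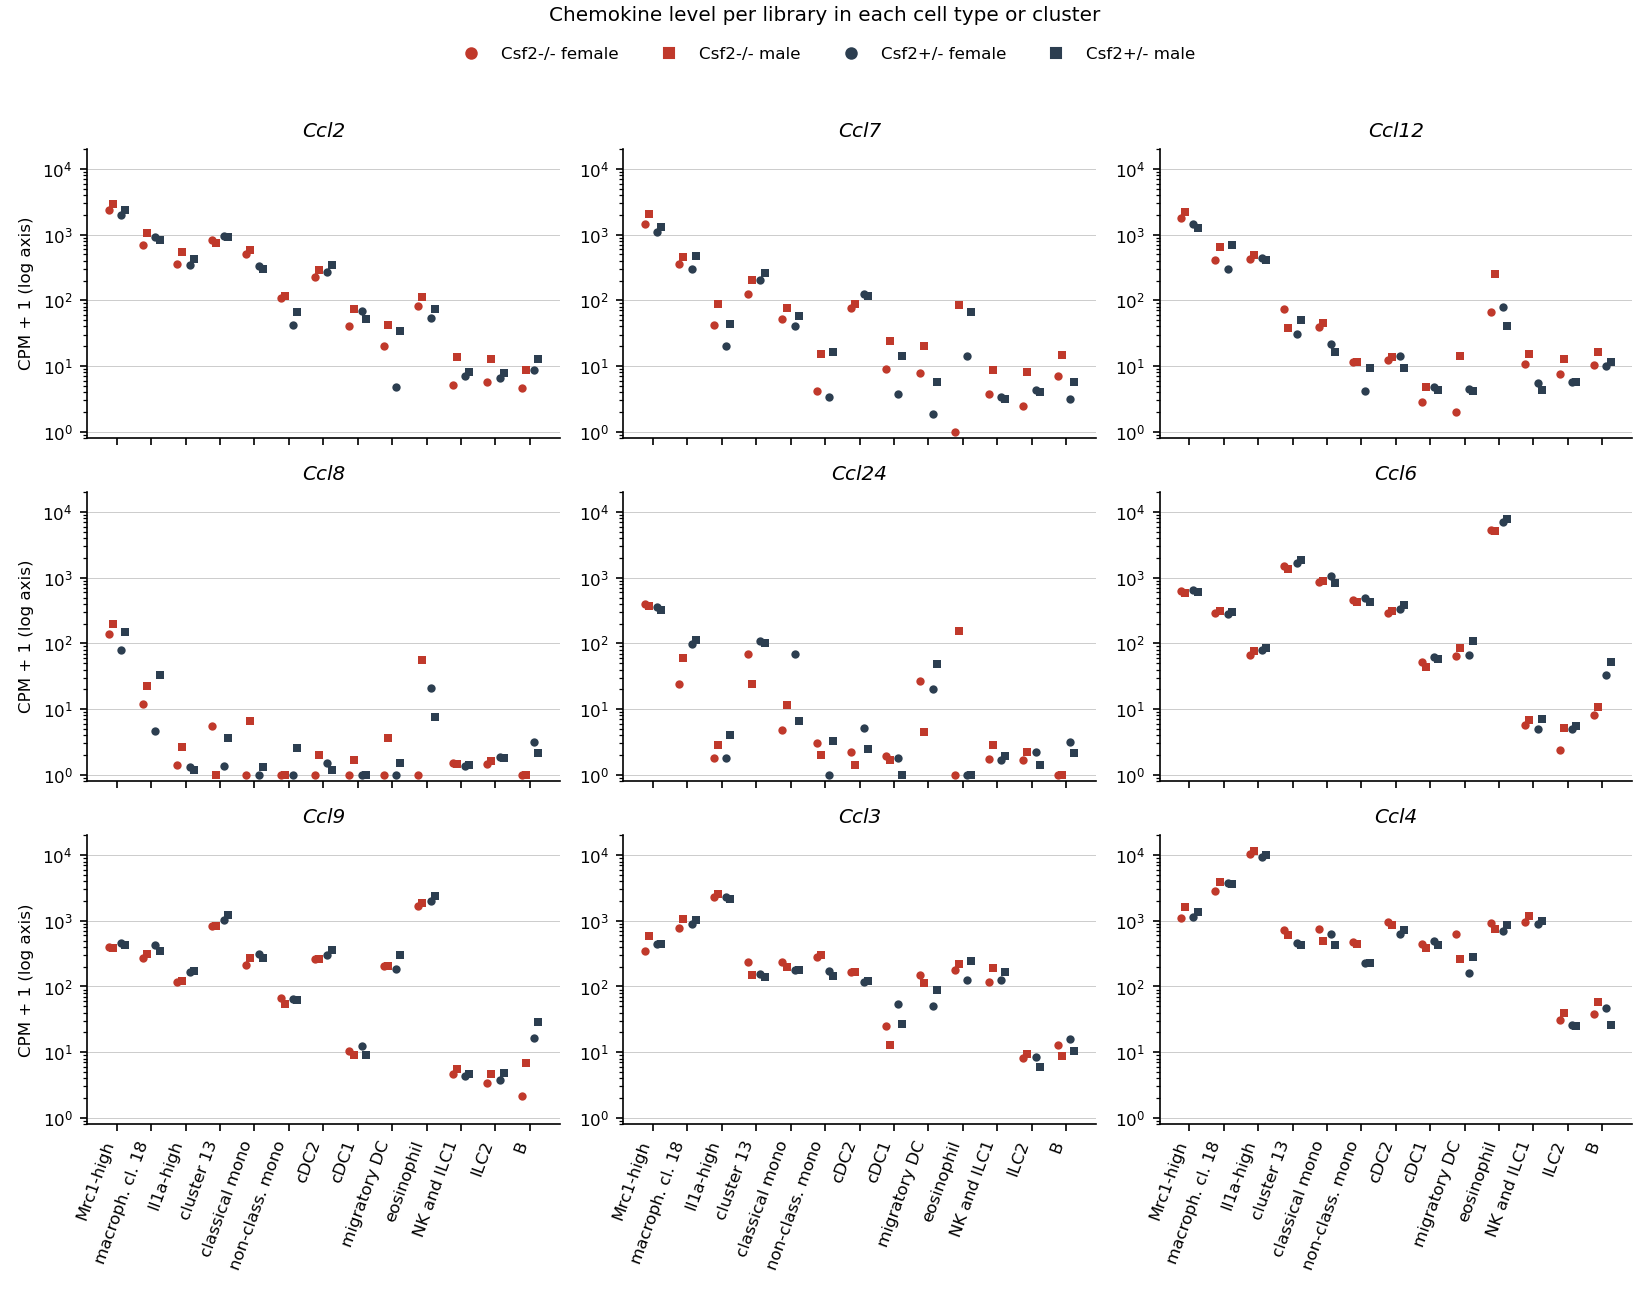
Level of each of the 9 chemokines in 13 cell types, as CPM + 1 on a log axis, with 1 point per library coloured by genotype. Ccl2, Ccl7, Ccl12, Ccl8 and Ccl24 peak in Mrc1-high macrophages among the types plotted, Ccl6 and Ccl9 in eosinophil-like cells and cluster 13, and Ccl3 and Ccl4 in Il1a-high macrophages, whose 4 pools sit between 9248 and 11432 CPM of Ccl4.

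The genes differed in how evenly cells of 1 type shared them. In Il1a-high cells 97.7% and 98.8% of cells in Csf2-/- and 98.7% and 98.0% in Csf2+/- pools held a Ccl4 UMI, and the 10% of cells with the most Ccl4 held 23.7 to 27.7% of its UMIs. For Ccl2 in Mrc1-high cells the shares of cells were 77.8% and 86.0% in Csf2-/- against 72.9% and 79.7% in Csf2+/- pools, and the top 10% of cells held 39.5 to 47.3% of its UMIs. Ccl8 lay at the other end. Only 21.5% and 26.9% of Csf2-/- and 16.7% and 21.5% of Csf2+/- Mrc1-high cells held a Ccl8 UMI, and the top 10% of cells held 82.2 to 89.8% of its UMIs, where the same share for Mrc1 was 26.3 to 31.0%. In B-like cells 1.81% and 4.00% of Csf2-/- and 3.98% and 6.85% of Csf2+/- cells held a Ccl2 UMI, 12.7% and 19.0% against 18.7% and 8.90% a Ccl4 UMI, and 0% against at most 0.797% a Ccl8 UMI. Median depth was 4615 to 5213 UMIs in B-like, 8032 to 9056 in Mrc1-high and 11237 to 12841 in Il1a-high cells.

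With every cell thinned to 3000 UMIs and shallower cells left out (109 and 110 Mrc1-high cells in Csf2-/- and 74 and 80 in Csf2+/- pools), the Ccr2 ligands were found together within Mrc1-high cells. Ccl7 was held by 67.5% and 77.5% of Csf2-/- and 64.0% and 70.1% of Csf2+/- cells with a Ccl2 UMI. Among cells without one it was held by 30.4% and 33.3% in Csf2-/- against 24.4% and 34.2% in Csf2+/- pools. Ccl12 gave 67.2% and 77.5% in Csf2-/- against 69.2% and 62.6% in Csf2+/- cells with Ccl2. In cells without it Ccl12 gave 33.3% and 30.7% in Csf2-/- against 22.1% and 32.9% in Csf2+/- pools. Ccl9 was likewise held by 66.4 to 73.6% of Mrc1-high cells with Ccl6 and by 37.1 to 41.4% of those without. The link of Ccl2 was not limited to Ccr2 ligands. Ccl3 was held by 31.9 to 41.4% of Mrc1-high cells with Ccl2 and 21.7 to 30.7% of those without. For Ccl4 these shares were 40.6 to 49.5% and 28.9 to 36.0%. Ccl2 and Ccl8 showed no such link, since Ccl2 was held by 75.7 to 86.6% of cells with a Ccl8 UMI and by 74.2 to 88.1% of cells without one.

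Over 87 sums of a library and a cell type, from 23 cell types, the genes outside the 9 whose log2(CPM + 10) followed each member most closely were named by rank among 8253 genes. The sums of 1 library share its cells and depth, and the correlations are descriptions only. Ccl2 was followed most closely by Clec4a2 (Pearson r = 0.93), Abca9 (0.92) and Grn (0.91), and Ccl7 by Mrc1 (0.90), F13a1 (0.89) and Rab11fip5 (0.87). For Ccl12 these genes were Stab1 (0.96), C1qc (0.95) and C1qa (0.95), for Ccl8 Slc40a1 (0.94), Lyve1 (0.91) and Cbr2 (0.90), and for Ccl24 Folr2 (0.86), F13a1 (0.85) and Pmp22 (0.84). Ptafr came first for both Ccl6 (0.90) and Ccl9 (0.95). Scimp and Plau came first for Ccl4 (0.82 each). Between members r was 0.94 for Ccl3 with Ccl4, 0.92 for Ccl6 with Ccl9 and 0.86 for Ccl2 with Ccl7.

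Genotype was compared within each cell type on summed counts with edgeR's quasi-likelihood test, with Benjamini-Hochberg adjustment over all genes tested in that type and a threshold of 0.05. Of 10 genes of the mitochondrial genome, 2 passed as lower in Csf2-/- Il1a-high cells and 1 in classical monocyte-like cells. Those that passed as lower were 2 in cDC1-like, 4 in cDC2-like, 1 in migratory dendritic-like and 2 in cluster 13 cells. Most of the others were lower too, since only 1 of the 10 was higher in each of these types, and 0 in cluster 13. In Mrc1-high cells 2 of the 10 were higher, and in eosinophil-like cells 8. The part of these genes in the results was not tested. In Mrc1-high macrophages 0 of the 9 chemokines passed, where 0.131% of all genes tested did. Ccl12 came closest, with the Mrc1-high levels given above (log2 change 0.53, SE 0.11, adjusted p = 0.0834), then Ccl7 (0.54, SE 0.16, adjusted p = 0.203) and Ccl2 (0.28, SE 0.10, adjusted p = 0.24). The Csf2-/- pools lay above both Csf2+/- pools for Ccl12, Ccl7, Ccl2 and Ccl24 (log2 0.17), and below both for Ccl9, at 393 and 386 CPM in Csf2-/- and 451 and 432 CPM in Csf2+/- pools (-0.19). For Ccl2 the nearest pools of the genotypes almost met, at the levels given above. Here and below, the share of all genes whose pools separate by genotype was not counted, so separation alone is a description. The genotypes overlapped for Ccl8 (0.57), Ccl6 (-0.07), Ccl3 (0.07) and Ccl4 (0.12). Ccl12, Ccl7 and Ccl2 had an unadjusted p under 0.05, where 1654 of 10667 genes did. DESeq2 called 2 of the 9, where it called 37 of 16769 genes. The median change was 0.17 over the 9 genes and -0.00 over all genes tested. Mrc1-high calls depended on single pools, and without the Csf2-/- female pool 5 of the 9 passed, where 698 of 11033 genes did. With sex as a block, 4 of the 9 passed (Ccl2, Ccl7, Ccl12 and Ccl8), where 914 of 10667 genes did.

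Il1a-high macrophages kept their high Ccl3 and Ccl4 in both genotypes, with log2 changes of 0.12 and 0.15 that did not pass. Of 8 chemokines tested there, 1 passed, where 0.760% of all genes did. Ccl9 fell to 118 and 121 CPM in Csf2-/- Il1a-high cells, against 167 and 171 CPM in Csf2+/- cells (log2 -0.53, SE 0.09, edgeR adjusted p = 0.00786). The groups did not overlap. Without the Csf2+/- male pool the adjusted p was 0.0505. B-like cells held 3.52 ± 3.30 CPM of Ccl9 in Csf2-/- and 21.7 ± 8.90 CPM in Csf2+/- pools (SD, n = 2 each), without overlap. Over the 4 libraries ILC2-like cells held 2.44 to 3.85 CPM of Ccl9, and NK and ILC1-like cells 3.40 to 4.54 CPM. The part of free RNA in the Ccl9 result was not tested. The eosinophil markers, of the type with the most Ccl9, summed to 8.73 and 9.15 CPM in Csf2-/- and 19.3 and 14.8 CPM in Csf2+/- Il1a-high cells, with 3 of 8 (Epx, Prg2 and Ear6) at 0. Retnla, which leads cluster 13, fell (log2 -2.79, edgeR adjusted p = 0.025) and Mrc1 rose (0.81, adjusted p = 0.025). Their part in the Ccl9 result was not tested. Ccl6, the neighbouring gene, was 66.6 and 74.3 CPM in Csf2-/- and 79.0 and 84.1 CPM in Csf2+/- Il1a-high cells (log2 -0.24, adjusted p = 0.304).

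A direct test of whether the genotype difference itself differed between Mrc1-high and Il1a-high macrophages, with each library as its own control, called 0 of the 9 chemokines, where 0.112% of 11606 genes passed by edgeR. Ccl12 came closest (0.42 higher on the log2 scale in Mrc1-high cells, SE 0.08, adjusted p = 0.0992). An unadjusted p under 0.05 was found for 2 of the 9, where 981 of 11606 genes had one. The division of the chemokines between the macrophage sets was thus present in both genotypes, with no difference in it that passed the test.

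**Figure D2:**
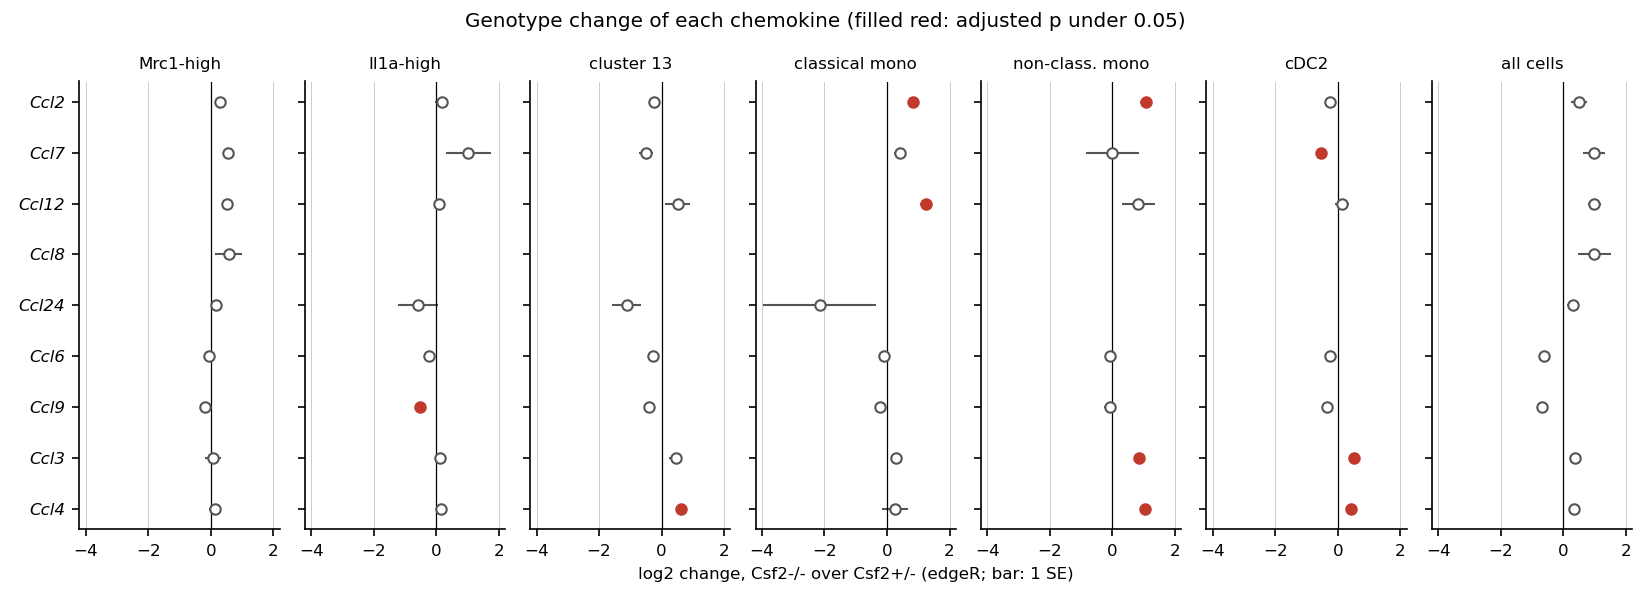
Log2 change of each chemokine, Csf2-/- over Csf2+/-, in 7 cell types with edgeR, as a point with bars of 1 SE; filled red points have an adjusted p under 0.05. The changes in Mrc1-high cells are drawn open, those of Ccl2 and Ccl12 are filled in classical monocyte-like cells, and Ccl9 is filled at -0.53 in Il1a-high cells.

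Classical monocyte-like cells, led by Hp, Plac8, Ifitm6 and Chil3, had more Ccl2 in the Csf2-/- pools. Ccl2 stood at 515 and 579 CPM in Csf2-/- and at 336 and 295 CPM in Csf2+/- pools (241 and 350 against 199 and 290 cells), with no overlap (log2 0.82, SE 0.10, edgeR adjusted p = 1.38e-04). Ccl12 stood at 37.7 and 44.1 CPM in Csf2-/- and 20.4 and 15.1 CPM in Csf2+/- pools (log2 1.25, SE 0.20, adjusted p = 0.0019). These were 2 of 8 chemokines tested, where 0.689% of all genes passed. Ccl6, of which the top 10% of these cells held only 27.0 to 28.4% of UMIs, stood at 856 and 886 CPM in Csf2-/- and 1068 and 837 CPM in Csf2+/- pools, which overlapped, as did those of Ccl7 and Ccl4.

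Markers of macrophages moved with the Ccl2 and Ccl12 results. The summed level of 12 macrophage markers in classical monocyte-like cells was 5414 and 5508 CPM in Csf2-/- and 3931 and 4457 CPM in Csf2+/- pools, with none at 0, and 42.3% and 51.1% of Csf2-/- against 34.2% and 38.6% of Csf2+/- cells held a UMI of C1qa, C1qb or C1qc, the complement genes of macrophages. In the cells with no such UMI, a comparison added after the data were seen, Ccl2 stood at 443 and 456 CPM in Csf2-/- and 272 and 268 CPM in Csf2+/- pools (log2 0.77, edgeR adjusted p = 8.40e-04). Ccl12 stood at 4.68 and 8.75 CPM in Csf2-/- and 6.28 and 10.9 CPM in Csf2+/- pools (-0.32, adjusted p = 0.906). Those Ccl12 values rest on 6 and 14 UMIs in Csf2-/- and 9 and 20 UMIs in Csf2+/- pools. Cells without a C1q UMI can hold other macrophage RNA, and its part in either result was not tested. The 18 immediate early and stress genes summed to 12848 and 11583 CPM in Csf2-/- and 10539 and 10033 CPM in Csf2+/- pools. Of the 18, 15 were higher in Csf2-/- cells (median log2 change 0.20, against 0.00 over all genes tested), and 2, Jun (0.73) and Fos (0.62), passed the test. NK and ILC1 markers summed to 241 and 94.9 CPM in Csf2-/- and 35.0 and 44.1 CPM in Csf2+/- pools. Their part in the Ccl2 result was not tested.

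The Ccl2 rise showed both as more positive cells and as higher counts. Some 48.5% and 49.1% of Csf2-/- classical monocyte-like cells held a Ccl2 UMI, against 40.2% and 36.2% of Csf2+/- cells, at median depths of 9230 and 9197 UMIs in Csf2-/- and 10422 and 9694 UMIs in Csf2+/- cells. At 3000 UMIs per cell the shares were 36.6% and 36.0% in Csf2-/- against 29.6% and 24.0% in Csf2+/- cells. The top 10% of cells held 68.9 to 76.7% of the Ccl2 UMIs. The exact binomial 95% interval of the Csf2-/- female share, 42.1 to 55.0%, overlapped that of the Csf2+/- female share, 33.3 to 47.4%. That of the Csf2-/- male share, 43.8 to 54.5%, lay above that of the Csf2+/- male share, 30.7 to 42.0%, and such intervals cover counting error only.

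Non-classical monocyte-like cells, led by Ace, Adgre4 and Treml4, had higher Ccl4, Ccl3 and Ccl2 in the Csf2-/- pools (143 and 135 cells) than in the Csf2+/- pools (167 and 176 cells). Ccl4 stood at 469.7 and 448 CPM in Csf2-/- and 223 and 229 CPM in Csf2+/- cells (log2 1.03, SE 0.12, edgeR adjusted p = 8.71e-07). Ccl3 stood at 276 and 297 CPM in Csf2-/- and 172 and 144 CPM in Csf2+/- cells (0.86, SE 0.14, adjusted p = 1.55e-04). Ccl2 stood at 109 and 117 CPM in Csf2-/- and 41.7 and 65.8 CPM in Csf2+/- cells (1.07, SE 0.19, adjusted p = 9.51e-04). None of the 3 overlapped between genotypes, and they were 3 of 7 chemokines tested, where 0.384% of all genes passed.

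Most UMIs of these 3 genes lay in a small part of the cells. The top 10% of cells held 68.4 to 79.5% of the Ccl3 UMIs and 82.3 to 91.5% of the Ccl2 UMIs. Ccl4 UMIs were found in 34.3% and 48.9% of Csf2-/- and in 33.5% and 42.6% of Csf2+/- non-classical monocyte-like cells, shares that overlapped between genotypes, and the top 10% of cells held 73.6 to 81.8% of the UMIs. The B-like shares given above were 8.90 to 19.0%. NK and ILC1 markers, of cells that also hold Ccl3 and Ccl4, summed to 169 and 35.1 CPM in Csf2-/- and 23.6 and 19.7 CPM in Csf2+/- cells, and their part in the results was not tested. In cells with no C1q UMI, Ccl4 stood at 525 and 513 CPM in Csf2-/- and 231 and 191 CPM in Csf2+/- cells (1.31, adjusted p = 4.33e-04), Ccl3 at 306 and 241 CPM against 199 and 155 CPM (0.64, adjusted p = 0.33) and Ccl2 at 152 and 106 CPM against 50.7 and 58.4 CPM (1.27, adjusted p = 0.0703). With predicted doublets kept, 0 of these 3 passed (adjusted p = 0.872 for Ccl4, 0.0753 for Ccl3 and 0.254 for Ccl2).

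**Figure D3:**
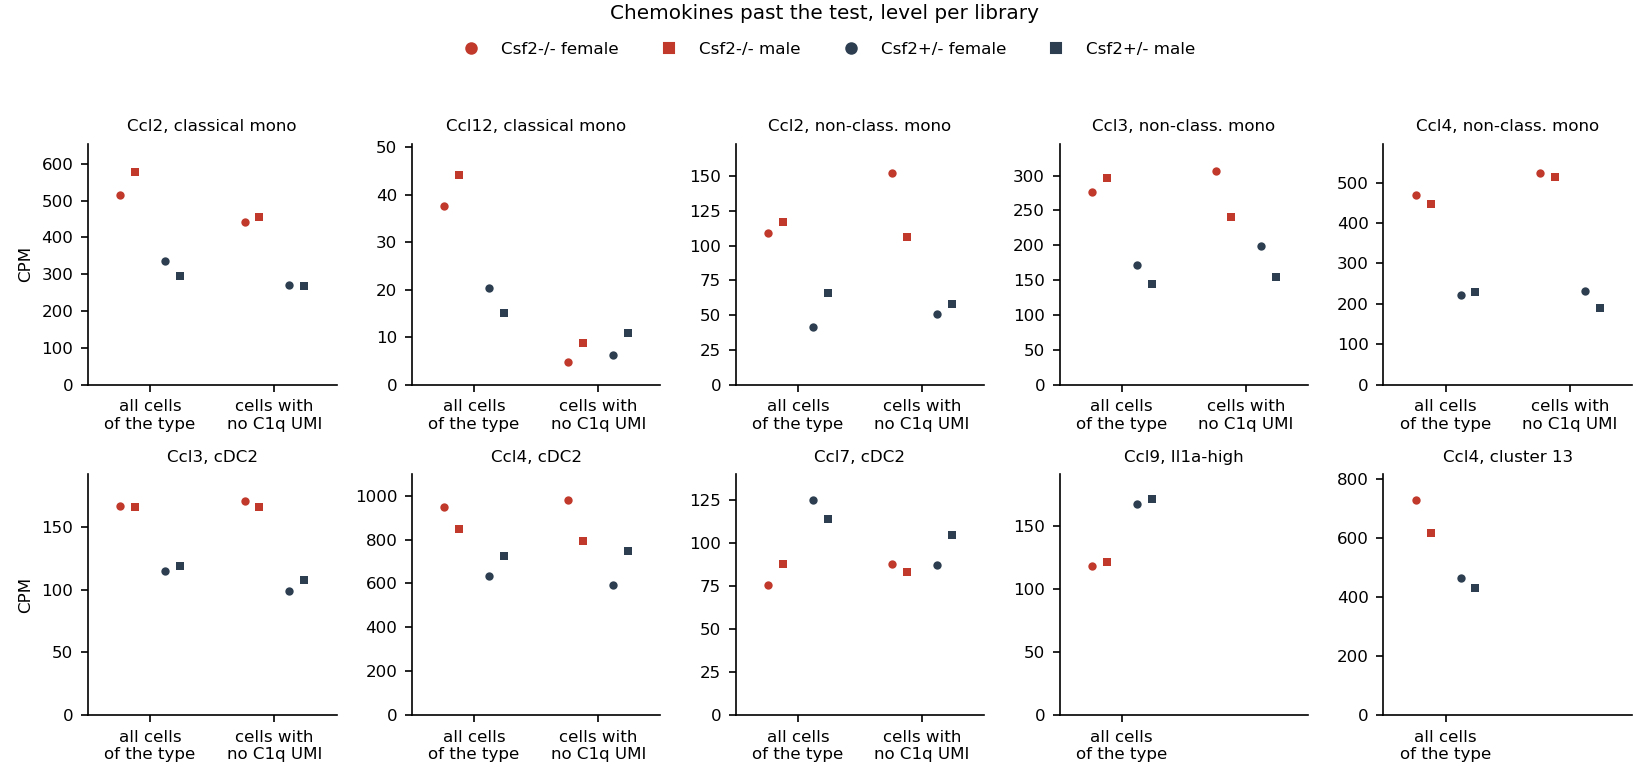
CPM per library for the chemokine and cell type pairs whose genotype change passed the edgeR test, with the Csf2-/- pools left of the Csf2+/- pools; for the monocyte-like and cDC2-like cells a second set of points shows cells with no C1q UMI. Ccl2 in classical and Ccl4 in non-classical monocyte-like cells keep the Csf2-/- pools above the Csf2+/- pools in both sets, and Ccl12 in classical monocyte-like cells does not.

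Dendritic cells gave a mixed picture. In cDC2-like cells, led by Cd209a and Clec10a, 3 of 7 chemokines passed, where 4.31% of all genes did. Ccl3 rose (167 and 166 CPM in Csf2-/-, 115 and 119 CPM in Csf2+/-; log2 0.52, SE 0.08, edgeR adjusted p = 0.0026), and so did Ccl4 (950.0 and 850.0 CPM in Csf2-/-, 634 and 725 CPM in Csf2+/-; 0.42, SE 0.09, adjusted p = 0.0126). Ccl7 fell (75.8 and 87.9 CPM in Csf2-/-, 125 and 114 CPM in Csf2+/-; -0.53, SE 0.09, adjusted p = 0.00436). For none of the 3 did the genotypes overlap.

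In cDC2-like cells without a C1q UMI, Ccl3 stood at 171 and 166 CPM in Csf2-/- and 99.0 and 108 CPM in Csf2+/- pools and still passed (0.72, adjusted p = 0.00957). Ccl4 (979 and 795 CPM in Csf2-/-, 592 and 749 CPM in Csf2+/-; adjusted p = 0.357) and Ccl7 (88.1 and 83.5 CPM in Csf2-/-, 87.3 and 105 CPM in Csf2+/-; adjusted p = 0.732) did not. Ccl7 and Ccl4 also lost their calls without the Csf2-/- female pool (0.0703 and 0.163) or without the Csf2+/- female pool (0.0632 and 0.121). NK and ILC1 markers summed to 373 and 352 CPM in Csf2-/- and 237 and 235 CPM in Csf2+/- cDC2-like cells, and their part in the Ccl3 and Ccl4 results was not tested. Ccl9 (log2 -0.33, adjusted p = 0.0572) and Ccl6 (-0.25, adjusted p = 0.152) did not pass.

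In cDC1-like cells 0 of 6 chemokines passed, where 1.36% of all genes did. Only 1, Ccl6 (log2 -0.35, adjusted p = 0.364), had an unadjusted p under 0.05, where 1125 of 9117 genes did. Migratory dendritic-like cells gave 0 of 7, where 0.442% of all genes passed. An unadjusted p under 0.05 was found for 2 of the 7, where 825 of 7920 genes had one. Ccl3 was 149 and 113 CPM in Csf2-/- and 50.1 and 88.4 CPM in Csf2+/- migratory cells (log2 0.91, adjusted p = 0.292), without overlap but with a wide spread. DESeq2 called 0 of the chemokines in either type.

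Cluster 13 held 77 and 72 cells in Csf2-/- and 297 and 375 cells in Csf2+/- pools, 0.859% and 0.834% against 3.38% and 4.63% of cells. Among 8 chemokines tested within it 1 passed, where 2.77% of all genes did. Ccl4 stood at 728 and 616 CPM in Csf2-/- and 464 and 432 CPM in Csf2+/- pools (log2 0.62, SE 0.12, edgeR adjusted p = 0.0175), without overlap. That call was lost without the Csf2-/- female pool (adjusted p = 0.0539), without the Csf2+/- male pool (0.097) and with doublets kept (0.0517). NK and ILC1 markers summed to 378 and 88.5 CPM in Csf2-/- and 121 and 188 CPM in Csf2+/- pools of the cluster. Ccl9 in cluster 13 was 836 and 837 CPM in Csf2-/- and 1027 and 1215 CPM in Csf2+/- pools (-0.39, adjusted p = 0.067), and the log2 difference of Ccl6 was -0.28 (adjusted p = 0.177). In eosinophil-like cells, 0.759% and 0.950% of Csf2-/- and 2.08% and 2.42% of Csf2+/- cells, 0 of 4 chemokines passed, where 0.144% of 2079 genes did. There the log2 difference of Ccl6 was -0.51 (SE 0.17, adjusted p = 0.34). An unadjusted p under 0.05 was found for 1 of the 4, where 182 of 2079 genes had one, and DESeq2 called 0.

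Summed over all cells of a library, Ccl6 and Ccl9 had lower values in Csf2-/- libraries and the other 7 chemokines higher ones, but 0 of 9 passed by edgeR, where 0.0186% of 16154 genes did. A sum over all cells mixes the number of cells of a type with the RNA per cell, and the sum alone cannot tell them apart. Ccl6 stood at 126 and 160.3 CPM in Csf2-/- and 200.0 and 247 CPM in Csf2+/- libraries (log2 -0.63, adjusted p = 0.315), and Ccl9 at 81.7 and 103 CPM against 131 and 170.1 CPM (-0.69, adjusted p = 0.314). Ccl4 stood at 1625 and 1666 CPM in Csf2-/- and 1287 and 1347 CPM in Csf2+/- libraries (0.34, adjusted p = 0.315), and Ccl3 at 331 and 386 CPM against 278 and 280.4 CPM (0.37, adjusted p = 0.281). The genotypes did not overlap for these 4 genes, nor for Ccl12 and Ccl7. How many of all genes separated in this way was not counted. An exact permutation test of 2 libraries against 2 cannot give p below 0.33 even for full separation. An unadjusted edgeR p under 0.05 was found for 6 of the 9, where 1813 of 16154 genes had one. DESeq2 called Ccl6, Ccl9, Ccl4 and Ccl3, where it called 342 of 20653 genes. Ccl12 was 168 and 280.2 CPM in Csf2-/- and 106 and 119 CPM in Csf2+/- libraries (1.00, adjusted p = 0.321).

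The share of each chemokine's UMIs that came from each cell type is given as a description, with no test. Cluster 13 gave 17.1% and 9.98% of all Ccl6 UMIs in Csf2-/- libraries, against at least 44.3% in each Csf2+/- library. Its part of the library's Ccl6 level was 21.4 and 16.0 CPM in Csf2-/- and 88.6 and 123 CPM in Csf2+/- libraries, a mean difference of -87.3 CPM. For Ccl9 cluster 13 gave 14.6% and 9.49% of UMIs in Csf2-/- against 40.7% and 47.6% in Csf2+/- libraries. The mean difference in the part of eosinophil-like cells was -7.57 CPM for Ccl6. With cluster 13 and the eosinophil-like cells left out, a setting chosen after the data were seen, the log2 change over all remaining cells was 0.12 for Ccl6 and -0.06 for Ccl9. Both types were chosen for their high Ccl6 and Ccl9 and had fewer Csf2-/- cells. The smaller change therefore follows from the choice and is no separate test.

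Mrc1-high macrophages gave 42.8% and 46.7% of Ccl2 UMIs in Csf2-/- against 32.1% and 35.2% in Csf2+/- libraries. Cluster 13 gave 4.75% and 2.03% of Ccl2 in Csf2-/- against 24.3% and 22.6% in Csf2+/- libraries, and the dividing macrophage cluster 21 gave 16.0% and 17.4% in Csf2-/- against 3.44% and 7.15% in Csf2+/- libraries. Of Ccl24, Mrc1-high cells gave 72.7% and 67.8% in Csf2-/- against 50.5% and 48.4% in Csf2+/- libraries. Ccl4 came from Il1a-high macrophages for 50.1% and 40.8% of its UMIs in Csf2-/- and for 43.8% and 43.3% in Csf2+/- libraries, which overlapped. NK and ILC1-like cells gave 15.9% and 14.6% of Ccl4 in Csf2-/- against 25.0% and 23.5% in Csf2+/- libraries.

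**Figure D4:**
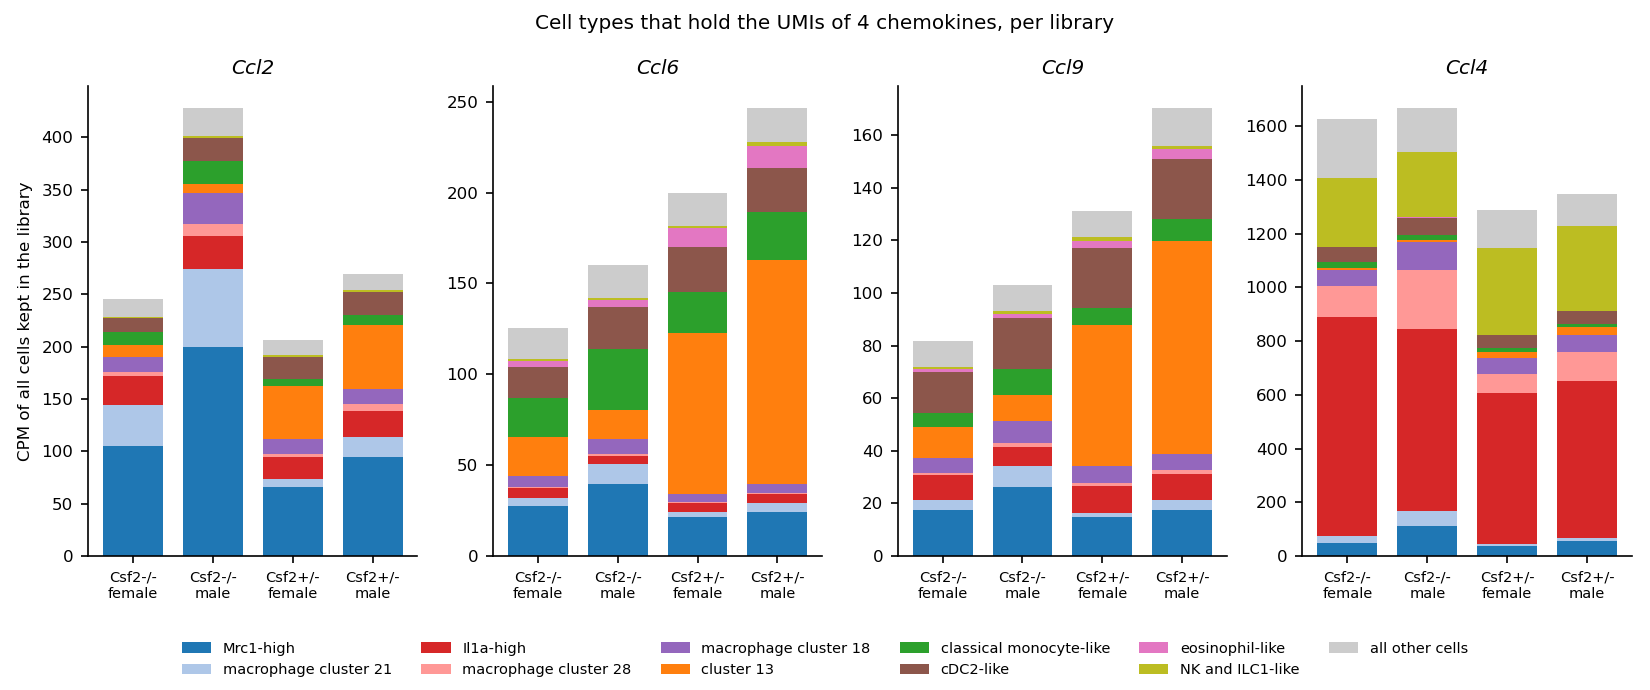
Contribution of each cell type to the level of Ccl2, Ccl6, Ccl9 and Ccl4 over all cells of a library, in CPM, as stacked bars with the Csf2-/- libraries left of the Csf2+/- libraries. The part of cluster 13 in Ccl6 is 21.4 and 16.0 CPM in Csf2-/- and 88.6 and 123 CPM in Csf2+/- libraries.

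Receptors of these ligands were described from a list of 11 CC receptor genes. In classical monocyte-like cells Ccr2, the receptor of Ccl2, Ccl7 and Ccl12, stood at 728 and 877 CPM in Csf2-/- and 707 and 679 CPM in Csf2+/- pools, and 1 of 5 receptors tested passed, the low Ccr7 (log2 -4.68, edgeR adjusted p = 0.0144). Cluster 13 also held Ccr2, at 811 and 1125 CPM in Csf2-/- and 906 and 1045 CPM in Csf2+/- pools. There 1 of 4 receptors passed, since Ccr1, a receptor of Ccl3 and of the Ccl6 and Ccl9 products, fell to 42.2 and 50.2 CPM in Csf2-/- pools, against 87.3 and 87.9 CPM in Csf2+/- pools (-0.90, SE 0.14, adjusted p = 0.00681). In each macrophage set 0 of 6 receptors passed, where 0.131% of all genes did in Mrc1-high and 0.760% in Il1a-high cells. In Mrc1-high cells 0 of the 6 were higher in Csf2-/- pools (median log2 change -0.58), and in Il1a-high cells 3 of the 6 were (0.05). The test of the difference between the sets called 1 of 7 receptors, with the lower change in Mrc1-high cells, where 0.112% of all genes passed. Ccr3, the Ccl24 receptor, stood at 725 and 873 CPM in Csf2-/- and 997 and 913 CPM in Csf2+/- eosinophil-like cells, the type it helped to name.

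Of the 11 other CC chemokine genes listed, 4 were tested in Mrc1-high macrophages, and all 4 were higher in Csf2-/- cells. Among them 1 passed, where 0.131% of all genes did, namely Ccl5, a chemokine gene that NK and T cells express. Ccl5 stood at 100.3 and 76.4 CPM in Csf2-/- and 25.1 and 29.0 CPM in Csf2+/- pools (log2 1.69, SE 0.17, edgeR adjusted p = 0.00984). NK and ILC1 markers moved with it, at 93.1 and 159 CPM in Csf2-/- and 40.6 and 48.3 CPM in Csf2+/- Mrc1-high cells, and their part in the result was not tested. In cDC2-like cells 2 of 6 passed as lower, the Ccr4 ligands Ccl17 (-4.06, SE 0.11, adjusted p = 9.53e-12) and Ccl22 (-1.30, SE 0.21, adjusted p = 0.00782). In Il1a-high macrophages 1 of 6 passed as higher and 2 as lower, where 0.760% of all genes passed. Migratory dendritic-like cells had 2 of 3 pass as lower, where 0.442% of all genes passed. The test of the difference between the macrophage sets called 1 of 7, where 0.112% of all genes passed. Of 16 NF-kB and inflammatory genes listed, 0 of 15 tested passed in classical monocyte-like cells, where 0.689% of all genes did. In non-classical monocyte-like cells 0 of 12 passed, where 0.384% of all genes did. Counts of 0 are near these shares, and the part of the listed genes in the Ccl2 results was not tested. In cDC2-like cells, where 4.31% of all genes passed, 2 of the 16 passed as higher, among them the neutrophil chemokine gene Cxcl1 (2.23), and 3 as lower.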

How the data were processed

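Single-cell 3′ libraries of CD45+ salivary gland cells, 2 per genotype, were read as the deposited matrices of raw UMI counts per gene and barcode. Per the submitters' processing notes these counts come from Cell Ranger 7.0.0 and GRCm39. The labels name the reagent kit, and strand use in counting is not given in the sources used here. Total counts are given in the report and set the precision of low values. No coordinate of the files was used. Promoters come from RefSeq on GRCm38.p6 and were aligned with biopython 1.88.

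Kept barcodes had no fewer than 500 UMIs and 300 genes and no more than 10% of UMIs from mitochondrial genes. Doublets were removed with Scrublet (scanpy 1.11.5) at its automatic threshold in the Csf2-/- male library (9.88% marked). In the other libraries that threshold marked 0 to 0.0343%, and the top-scoring barcodes were removed instead, up to the rate expected from loading. Clustering used 3000 variable genes without chemokine, immune receptor, mitochondrial, ribosomal and sex-linked genes, 40 principal components, 15 neighbours and Leiden at resolution 1.5 (leidenalg 0.10.2). Clusters were named from marker lists. The margin of 0.3 in the naming score and the minimum of 3 markers at 50 CPM were set after the clusters were seen. Several macrophage clusters had no macrophage marker among their top 10 genes, so the Mrc1-high and Il1a-high sets were compared in place of the whole class, monocytes were tested as classical and non-classical cells, and the eosinophil-like cells were added after the levels were seen.

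Counts were summed per library and cell type, for types with at least 50 cells in every library, and fitted in edgeR 4.0.16 under R 4.3.3 (quasi-likelihood test, TMM, filterByExpr). Genotype was the only term, which leaves 2 residual degrees of freedom. The SE was derived from the change and its F statistic. The difference between macrophage sets was tested with library as a block. The fit was first tested on simulated counts. No exact permutation test was run, since 2 libraries against 2 cannot give p below 0.33. Alternatives were RLE size factors, DESeq2 1.42.0, no filter, sex as a block, each library left out, doublets kept, at least 1000 UMIs, resolution 1.0 and chemokines kept in clustering. All-cell sums without cluster 13 and eosinophil-like cells, and monocyte-like and cDC2-like sums without cells holding a C1q UMI, were added after the data were seen.

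The 9 chemokines are the named genes, with values given for those each comparison turns on. Of a gene list, up to 4 genes with the lowest p or highest level are named, and for likeness the 3 genes with the highest correlation, among genes reaching 50 CPM in a sum. The genes closest to Ccl3 are not reported here. The members and lists were chosen with earlier results of these data known. Exact binomial 95% intervals are from scipy 1.17.1.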

Additional observations from a re-analysis of the deposited data

How the results depend on the processing

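RLE size factors changed no chemokine call. The totals that follow leave out the counts of genes and chemokines called, which are given below. They count chemokine differences per gene, comparison and alternative. Of these, 378 kept their direction and side of the threshold, 31 passed where they had not, 20 no longer passed and 5 turned sign. Those that turned were Ccl24 in Mrc1-high cells (-0.07 with chemokines kept in clustering), Ccl6 in Mrc1-high cells (0.01 without the Csf2-/- male or the Csf2+/- female pool), Ccl6 over all cells (0.12 without cluster 13 and eosinophil-like cells) and Ccl12 in classical monocyte-like cells (-0.32 without cells holding a C1q UMI).

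Without a low-count filter the genes called were 507 in Mrc1-high, 326 in Il1a-high, 164 in classical and 77 in non-classical monocyte-like, 314 in cDC1-like, 824 in cDC2-like, 292 in migratory dendritic-like, 772 in cluster 13 and 17 in eosinophil-like cells, 5 over all cells and 123 for the difference between macrophage sets, with chemokines called in numbers of 3 (Mrc1-high), 1 (cDC1-like), 5 (cDC2-like), 2 (migratory), 5 (cluster 13), 2 (eosinophil-like) and 1 (difference). DESeq2 called 37, 23, 20, 2, 38 and 239 genes in Mrc1-high, Il1a-high, classical, non-classical, cDC1-like and cDC2-like cells, 170 in cluster 13, 0 in eosinophil-like cells, 342 over all cells and 6 for the difference, with 2 chemokines in Mrc1-high, 1 in classical, 1 in non-classical and 2 in cluster 13 cells and 4 over all cells.

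Both genotypes have a replicate 1 (female) and a replicate 2 (male), which come from different mice, so sex as a replicate block is no pairing of animals. With this block, which leaves 1 residual degree of freedom, 914 genes were called in Mrc1-high, 220 in Il1a-high, 161 in classical, 103 in non-classical, 350 in cDC1-like, 952 in cDC2-like, 454 in cluster 13 and 15 in eosinophil-like cells and 12 over all cells, with 4, 2, 1, 6 and 3 chemokines in Mrc1-high, Il1a-high, cDC1-like, cDC2-like and cluster 13 cells.

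With doublets kept, 48 genes were called in Il1a-high, 39 in classical, 7 in non-classical, 299 in cDC2-like and 0 in eosinophil-like cells and 47 for the difference, with 0 chemokines in non-classical and cluster 13 cells, 1 in migratory cells and 1 for the difference. At 1000 UMIs, and with chemokines kept in clustering, 35 genes were called in Mrc1-high cells, and with chemokines kept 1 chemokine in classical monocyte-like cells. Resolution 1.0 gave 136 genes in Il1a-high cells and 1 chemokine for the difference, put Ccl4 at a median of 1935 CPM in Mrc1-high cells in place of 1259.8 CPM, left no cells named classical monocyte-like and put the name non-classical monocyte-like on other, fewer cells (15 and 26 in Csf2-/- and 5 and 15 in Csf2+/- pools), so the monocyte comparisons were not run there. Without C1q-holding cells 21, 3 and 110 genes were called in classical, non-classical and cDC2-like cells, with 1 chemokine in each.

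Leaving out 1 library moved the genes called between 0 and 698 in Mrc1-high, 34 and 312 in Il1a-high, 71 and 306 in classical, 29 and 43 in non-classical, 88 and 204 in cDC1-like, 223 and 257 in cDC2-like, 6 and 191 in migratory, 112 and 356 in cluster 13 and 2 and 19 in eosinophil-like cells, 7 and 20 over all cells and 0 and 185 for the difference. Chemokines called ran from 0 to 5, 0 to 2, 2 to 4, 3 to 3, 0 to 1, 1 to 3, 0 to 3, 0 to 3, 0 to 2, 0 to 1 and 0 to 1 in the same order. The lone library is then assumed to vary like the others. Ccl6 in Mrc1-high cells ran from -0.15 to 0.01. The Ccl2 change stayed at 0.72 to 0.91 in classical and the Ccl4 change at 0.98 to 1.08 in non-classical monocyte-like cells. The cause of these moves was not tested. With 2 pools per genotype, a p-value that misses the threshold does not show equal levels.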

Other observations

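Small cell types outside the comparisons held some of the same chemokines. The mast cell-like cells, 3 and 5 in Csf2-/- and 7 and 1 in Csf2+/- pools, had 93 and 61 UMIs of Ccl2 against 215 and 30, which is 6600.0 and 5264 CPM in Csf2-/- and 7489 and 7618 CPM in Csf2+/- pools, above the level of every Mrc1-high pool. Plasmacytoid dendritic-like cells, 30 and 27 in Csf2-/- and 32 and 17 in Csf2+/- pools, held Ccl4 at 5772 and 4842 CPM in Csf2-/- and 5410.0 and 3464 CPM in Csf2+/- pools. Neutrophil-like cells, 44 and 23 in Csf2-/- and 33 and 27 in Csf2+/- pools, held Ccl6 at 1938 and 1708 CPM in Csf2-/- and 2341 and 1993 CPM in Csf2+/- pools. An unnamed cluster of 129 cells led by the interferon-induced genes Rsad2 and Ifit3 held Ccl12 at 1349 and 910.3 CPM in Csf2-/- and 2195 and 722 CPM in Csf2+/- pools. These types had under 50 cells in at least 1 library and were not tested.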
